A study of Saccharomyces cerevisiae with 6 samples.

Results

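Cryptic unstable transcripts (CUTs) are short noncoding RNAs that RNA polymerase II makes from intergenic and antisense start sites across the budding yeast genome. The Nrd1-Nab3-Sen1 complex, which binds short RNA motifs, terminates them early, the TRAMP complex adds a short oligo(A) tail, and the nuclear RNA exosome with its exonuclease Rrp6 degrades them. CUTs were defined as transcripts that accumulate when this decay is impaired, and the CUTs described here are those with a measurable level in cells with an intact Rrp4, a cap subunit of the exosome. They were chosen from all CUT identifiers by dividing each *RRP4* library by its total counts and keeping the CUTs with a mean of at least 2 CPM (counts scaled to a library total of 1e6) over the 3 *RRP4* libraries. This gave 396 of 925 CUTs (42.8%), among 8898 counted features. Because the *RRP4* levels chose them, those levels are given as a description, and the choice on *RRP4* libraries also bears on the change between genotypes.

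The study modelled an amino acid substitution of the human exosome subunit EXOSC2 in the yeast ortholog Rrp4 and asked which transcripts differ in the mutant cells. All cells were haploid *Saccharomyces cerevisiae* of the BY4742 background, labelled MATα *ura3Δ0 leu2Δ0 his3Δ1*. The strain list of the study also gives *lys2Δ0*, and there the mating type reads MATa. The chromosomal *RRP4* was replaced by a NEO cassette, and the cells lived on a *LEU2* centromeric plasmid carrying either *rrp4-G226D*-2xMyc or *RRP4*-2xMyc. Total RNA was taken from 3 *rrp4-G226D* and 3 *RRP4* cultures kept at 37°C for 5 h in minimal medium lacking leucine, depleted of rRNA and sequenced as stranded paired-end libraries. The libraries held 9360608 to 12181979 counts in *rrp4-G226D* cells and 7663545 to 10601422 counts in *RRP4* cells. The deletion, the tag, the plasmid and the temperature were shared by both genotypes. *URA3* had 0 counts in all 6 libraries, and *LYS2* had 1 count in 1 *rrp4-G226D* library and 0 in the others. *HIS3*, labelled *his3Δ1*, had 683 to 885 counts in *rrp4-G226D* and 478 to 851 in *RRP4*. The summed level of 3 α-cell genes was 1176 to 1393 normalized counts in *rrp4-G226D* and 1419 to 1645 in *RRP4*, against 22.8 to 25.1 and 21.1 to 24.2 normalized counts for 4 a-cell genes. Normalized counts are here CPM after scaling each library for composition (TMM). The scaling factors were 1.15 to 1.20 in *rrp4-G226D* and 0.821 to 0.878 in *RRP4*.

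The count table gives no coordinates for CUTs, but its row order was used to place them. The table runs along the chromosomes, with 6048 genes matched by systematic name to RefSeq's R64 annotation and 0 steps back in start coordinate, and the CUT numbers also ascend without a step back. A CUT was therefore taken to start between the starts of the annotated genes before and after its row, and the interval is the stretch between those genes. The rows of CUTs themselves were not checked against coordinates, and the one outside comparison, with primer positions of the study, differed for 3 of 3 names (given with CUT501, CUT770 and CUT896), so the windows, flanking genes and orientations given here rest on row order alone. The strand and the extent of a CUT were not used here. For 6 named CUTs that stood alone between genes 200 to 500 bases apart, the 30-base window of that interval richest in the core letters of the RNA motifs of Nrd1 (GTAA or GTAG) and Nab3 (TCTT) is shown, because these are the letters that the termination complex reads. Both strands were searched, overlapping matches were counted, and capitals mark the matches. CUT641 had the largest increase, the rows of CUT560 and CUT561 stand before and after that of *TIS11*, CUT603 had the highest *RRP4* level, CUT770 shares its name with a CUT assayed in the study, and CUT102 was lower in the mutant.
CUT641, chrXIII:534750-534779, minus strand: gggattGTAGttgtttgaatttGTAGGTAA
CUT560, chrXII:415577-415606, minus strand: tgtgtacgtgtatTCTTcatctatacGTAA
CUT561, chrXII:416957-416986, minus strand: TCTTcgctgccGTAAccattctcTCTTCTT
CUT603, chrXIII:23741-23770, plus strand: ttatattTCTTttagatgtgcaatttGTAA
CUT770, chrXV:380807-380836, plus strand: taTCTTcgtgaagattcgtGTAGtatgata
CUT102, chrIV:309589-309618, plus strand: tatgatggaacattattgtattaGTAGTAG

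A window with at least 3 of these motifs was present in 53.6% of the 153 such intervals with a readily detected CUT, in 40.1% of the 192 with fainter CUTs only, in 38.2% of the 2519 with no CUT and in 39.2% of all 2864. The median interval length was 330 bases with a readily detected CUT, 337.5 bases with fainter CUTs and 310 bases with no CUT. The window beside CUT561 held 4 motifs, a number reached by 8.03% of all intervals, and that beside CUT641 held 3. The windows beside CUT102, CUT560, CUT603 and CUT770 held 2 each, and 92.4% of all intervals had a window with at least 2. A match is a description of letters, not a binding site, and it may lie outside the CUT.

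In *RRP4* cells most of these CUTs were close to the limit by which they were chosen. Their level was 2.00 to 75.8 CPM with a median of 3.73 CPM; 130 were under 3 CPM and 30 reached 10 CPM. All 3 *RRP4* libraries were at or above 2 CPM for 318 CUTs, and for the other 78 at least 1 library was below. Just inside the limit stood CUT568 at 2.00, CUT296 at 2.01 and CUT23 at 2.01 CPM, and just outside it CUT468 at 1.99, CUT571 at 1.99 and CUT798 at 1.98 CPM. On the normalized scale the median over the CUTs was 7.41 in *rrp4-G226D* cells (range 1.29 to 159) and 4.35 in *RRP4* cells (range 2.34 to 88.5). The median coefficient of variation over 3 libraries was 12.3% in *rrp4-G226D* and 14.8% in *RRP4*. At least 10 normalized counts were reached by 128 CUTs in *rrp4-G226D* and by 40 in *RRP4*, and at least 20 by 27 and 9. The mean raw count over the 6 libraries was 18.3 to 1199.5 with a median of 63.2, and the lowest raw count in any single library was 9 in *rrp4-G226D* and 10 in *RRP4*.

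As a group, these CUTs were higher in *rrp4-G226D* cells. They took 0.474% ± 0.00687 of all counts in *rrp4-G226D* libraries and 0.207% ± 0.00704 in *RRP4* libraries (SD, n = 3 each), and their summed level was 4059 ± 146 and 2423 ± 94.0 normalized counts. The libraries of the genotypes did not overlap on either measure. Their share of all CUT counts was 81.3% ± 0.543 in *rrp4-G226D* and 81.5% ± 0.160 in *RRP4*, a difference smaller than the spread between *rrp4-G226D* libraries. Bulk RNA levels do not separate synthesis from decay, and more cells making a transcript and more of it per cell cannot be told apart.

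Each CUT was tested with edgeR's quasi-likelihood test over all features, and a CUT was called where the p adjusted after Benjamini and Hochberg over all features was under 0.05 and the levels differed by 1.5-fold or more. All 396 CUTs passed the filter on low counts. Of these, 252 (63.6%) were increased, against 12.7% of the 7631 features tested, and 5 (1.26%) were decreased, against 11.3% of all features. The median log2 fold change was 0.76 (quartiles 0.41 and 1.05, range -1.52 to 1.92) beside 0.01 for all features tested. The estimate was above 0 for 357 CUTs and below 0 for 39. All 3 *rrp4-G226D* libraries lay above all 3 *RRP4* libraries for 288 CUTs (72.7%, against 31.3% of all features), and all 3 lay below for 11 (2.78%, against 32.8% of all features).

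The size of the change was moderate. No CUT of the 396 reached 4-fold; 8 were 3- to 4-fold higher, 102 were 2- to 3-fold higher and 143 were 1.5- to 2-fold higher, of which 142 passed the test. A further 104 were up to 1.5-fold higher and 33 up to 1.5-fold lower. Among the 139 CUTs that were not called, 32 were higher and 5 lower at an adjusted p below 0.05 (edgeR) but without a call, and 102 had an adjusted p of 0.05 or more. Such a p does not show that those CUTs were at equal levels.

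**Figure D1:**
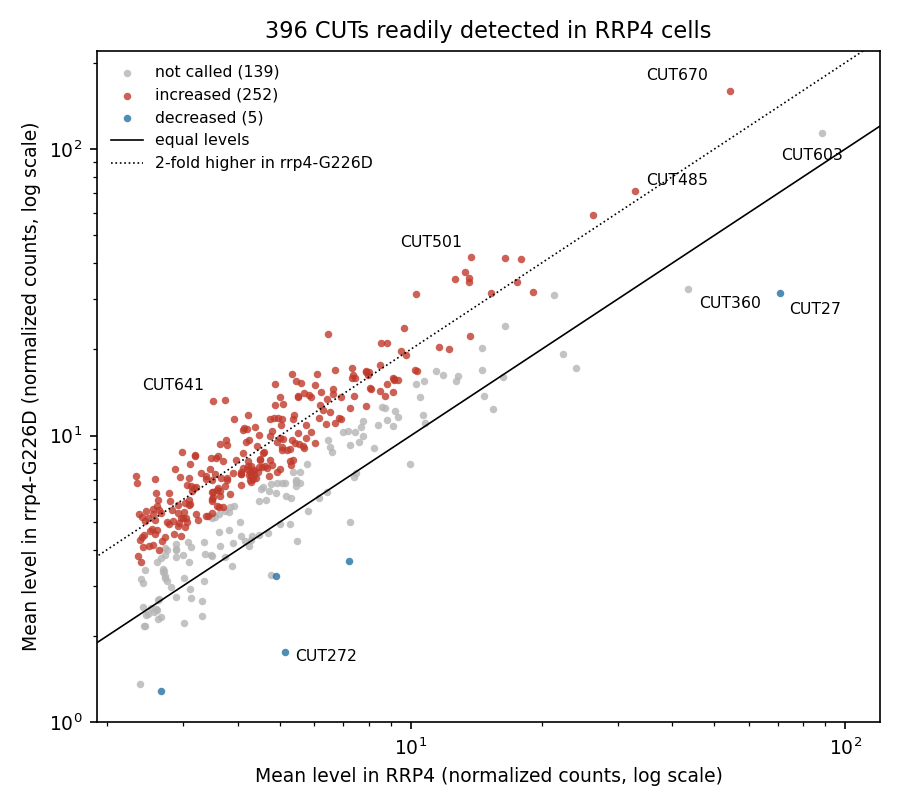
Mean level of each of the 396 CUTs in *rrp4-G226D* (vertical axis) and *RRP4* (horizontal axis) libraries, in normalized counts on log scales, with 3 libraries a genotype; colours give the call. Most points lie above the line of equal levels, including the 252 increased CUTs, and CUT27 is the only decreased CUT among those with more than 10 normalized counts in *RRP4*.

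The change is given by *RRP4* level as a description only, since that level chose the CUTs and is also the denominator of the fold change. The median log2 fold change was 0.72 for the 130 CUTs at 2 to 3 CPM, 0.78 for 153 at 3 to 5 CPM, 0.75 for 83 at 5 to 10 CPM and 0.70 for 23 at 10 to 20 CPM. The 7 CUTs at 20 CPM or more had a median of 0.36, with 3 increased and 1 decreased. The share increased was 61.5%, 69.3%, 61.4%, 52.2% and 42.9% from the lowest to the highest of these ranges. Across the 396 CUTs, which share the same 6 libraries, Spearman's rho between *RRP4* level and log2 fold change was 0.02. The order of levels was largely shared by the genotypes, with rho = 0.83 between mean levels in *rrp4-G226D* and *RRP4*. Since the *RRP4* libraries both chose the CUTs and entered the fold change, the choice was repeated on 1 *RRP4* library and the change fitted on the other 5. This gave 377 to 402 CUTs, of which 232 to 253 were increased and 4 or 5 decreased, with medians of 0.75 to 0.78. With the level also read from that 1 library, an arrangement added after seeing the data, rho between level and log2 fold change was 0.01, -0.03 and 0.02 (n = 388, 377 and 402).

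The nearest groups of transcripts were set beside them. Of the 529 CUTs under the limit, 334 passed the filter on low counts, and of those 158 (47.3%) were increased and 0 decreased by edgeR, with a median log2 fold change of 0.74 (0 were also lower at an unadjusted p under 0.05 and 0 were decreased by DESeq2); only those high enough in some libraries could pass, so no share over all 529 follows. At 2 CPM or more, 616 stable unannotated transcripts (SUTs), noncoding transcripts that are readily seen in normal cells, had 187 increased (30.4%) and 18 decreased and a median of 0.38. Among 3311 open reading frames within the level range of the CUTs, 173 (5.23%) were increased and 323 decreased, with a median of -0.06; their median *RRP4* level of 39.2 normalized counts was well above the 4.35 of the CUTs, so they share the range and not the level. In *rrp4-G226D* libraries 622 CUTs reached 2 CPM, namely 394 of the 396 and 228 of the fainter ones.

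**Figure D2:**
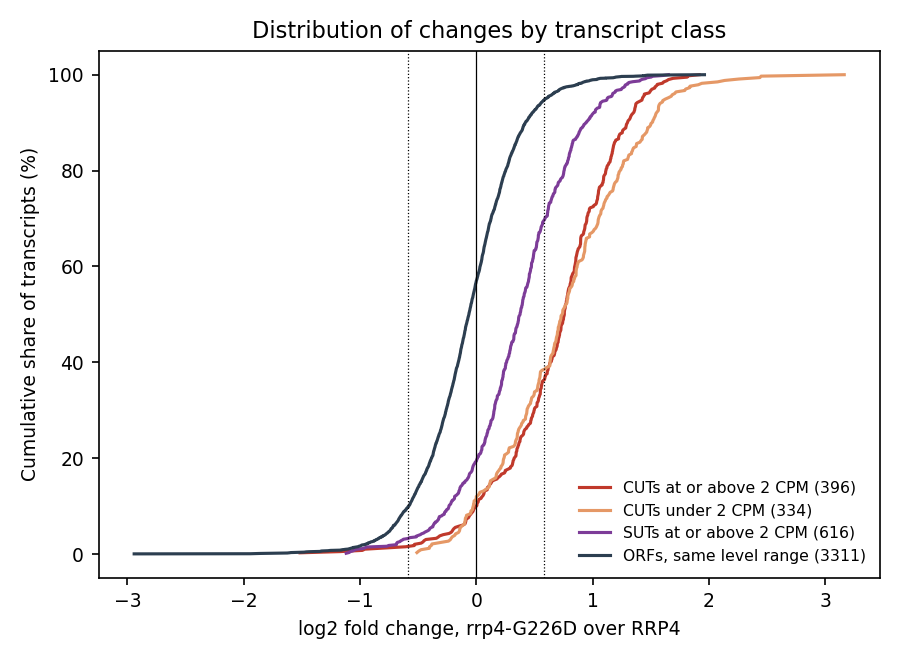
Cumulative share of transcripts (vertical axis, %) against log2 fold change of *rrp4-G226D* over *RRP4* (horizontal axis) for 4 groups, with dotted lines at 1.5-fold. The curves of the 396 readily detected CUTs and the 334 fainter CUTs tested cross 50% at 0.76 and 0.74, to the right of SUTs at 0.38 and open reading frames at -0.06.

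The CUTs with the highest *RRP4* levels did not share 1 direction. CUT603, placed on chromosome XIII between *TUB3*, an α-tubulin gene, and *PHO84*, the high-affinity phosphate transporter gene, had 116, 112 and 114 normalized counts in *rrp4-G226D* and 88.4, 87.2 and 89.9 in *RRP4*. Its libraries did not overlap, and its log2 fold change of 0.36 ± 0.06 (SE; edgeR adjusted p = 3.36e-05) was under 1.5-fold and not called; it was called at 0.81 under scaling by total counts only. CUT27, on chromosome II between *TCM62* and the meiotic gene *GIP1*, had 33.6, 27.4 and 33.6 normalized counts in *rrp4-G226D* and 72.9, 70.9 and 68.8 in *RRP4*. It fell in the mutant with no overlap, by a log2 fold change of -1.17 ± 0.08 (SE; edgeR adjusted p = 2.91e-09). CUT670, on chromosome XIII between *FKS3* and *GAS1*, a cell wall glucanosyltransferase gene, had 147, 161 and 170 normalized counts in *rrp4-G226D* and 53.2, 55.8 and 53.5 in *RRP4*. It rose by 1.56 ± 0.07 on the log2 scale (SE; edgeR adjusted p = 1.46e-11) and was the highest of the 396 in the mutant.

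CUT485, beside *STR2*, a gene of sulfur amino acid metabolism, and CUT459, between *TAX4* and *IML2*, were also called. CUT485 had 65.0, 75.7 and 73.6 normalized counts in *rrp4-G226D* and 34.2, 30.5 and 34.0 in *RRP4*, a log2 fold change of 1.12 ± 0.08 (SE). CUT459 had 61.5, 58.0 and 57.5 normalized counts in *rrp4-G226D* and 25.3, 23.2 and 30.2 in *RRP4*, a log2 fold change of 1.18 ± 0.09 (SE). Neither showed any overlap, with edgeR adjusted p = 3.85e-09 for CUT485 and 6.63e-09 for CUT459. CUT222, between the flippase gene *NEO1* and *SYG1*, averaged 31.7 ± 2.71 normalized counts in *rrp4-G226D* and 19.2 ± 3.52 in *RRP4* (SD, n = 3 each) and rose by 0.71 on the log2 scale, a call that was lost without *RRP4* replicate 3 (0.58). CUT259, next to the polyphosphate synthesis gene *VTC1*, averaged 30.9 ± 3.20 in *rrp4-G226D* and 21.3 ± 2.87 in *RRP4*; its log2 fold change of 0.54 was not called, and was called at 0.65 without *RRP4* replicate 1, at 0.61 without *rrp4-G226D* replicate 2, at 0.61 under TMM over open reading frames and at 0.99 under scaling by total counts only.

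The other 3 of the 10 highest were not called and had estimates below 0. CUT360, between *PPT1* and the asparagine synthetase gene *ASN2*, averaged 32.4 ± 5.20 normalized counts in *rrp4-G226D* and 43.5 ± 1.81 in *RRP4*, with a log2 fold change of -0.43 that was 0.02 when libraries were scaled by total counts only. CUT252, between *FCY2*, a purine-cytosine permease gene, and the ribosomal protein gene *RPL34A*, averaged 17.2 ± 1.46 in *rrp4-G226D* and 24.0 ± 1.40 in *RRP4*, a log2 fold change of -0.47. CUT188, between the ribosomal protein gene *RPL12B* and the DNA polymerase gene *RAD30*, averaged 19.2 ± 1.32 in *rrp4-G226D* and 22.4 ± 2.56 in *RRP4*, with overlapping libraries. Its log2 fold change of -0.21 (edgeR adjusted p = 0.105) was 0.23 under total counts only. *PPT1* and *ASN2* beside CUT360 had log2 fold changes of -0.15 and -0.66. Those of *FCY2* and *RPL34A* were -0.35 and -0.64, and those of *RPL12B* and *RAD30* were -1.01 and 0.38.

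**Figure D3:**
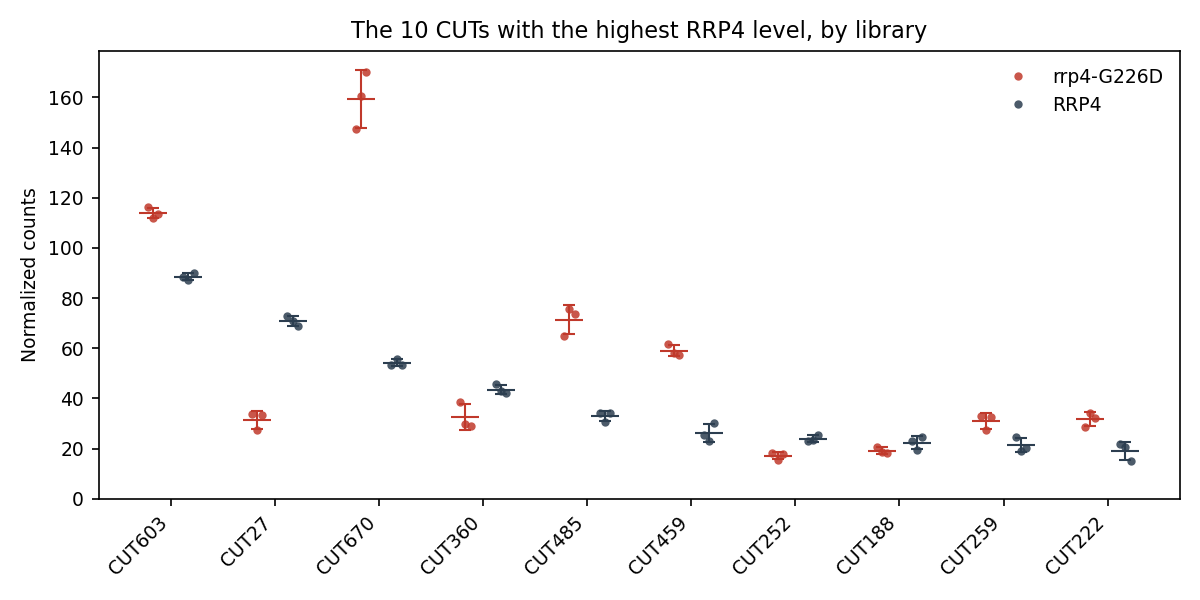
Normalized counts (vertical axis) of the 10 CUTs with the highest *RRP4* level in each library; *rrp4-G226D* is left of *RRP4* in each pair, and bars give the mean and SD of 3 libraries. CUT670 averages 159 in *rrp4-G226D* and 54.2 in *RRP4*, while CUT27 averages 31.5 and 70.9.

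The 10 largest increases covered the range of *RRP4* levels and include CUT670, the third highest, given above. CUT641, on chromosome XIII between *RRB1*, a ribosome assembly gene, and *JLP2*, had 16.4, 10.2 and 13.1 normalized counts in *rrp4-G226D* and 4.12, 2.71 and 3.72 in *RRP4*. The genotypes were well apart, and the log2 fold change was 1.92 ± 0.21 (SE; edgeR adjusted p = 5.05e-07), the largest of the 396. CUT333, on chromosome VII between *BRP1* and *YGL006W-A*, had 16.6, 10.5 and 12.9 normalized counts in *rrp4-G226D* and 3.76, 4.01 and 3.42 in *RRP4*, a log2 fold change of 1.82 ± 0.20 (SE). CUT421, beside the meiotic recombination gene *REC104* on chromosome VIII, had 36.9, 26.4 and 30.5 in *rrp4-G226D* and 12.2, 8.79 and 9.81 in *RRP4*, a log2 fold change of 1.60 ± 0.14 (SE). Their groups did not overlap either, with edgeR adjusted p = 4.32e-07 for CUT333 and 3.87e-08 for CUT421.

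CUT560 and CUT561 have rows before and after that of *TIS11* on chromosome XII, and either may extend into that gene. *TIS11* encodes a zinc finger protein that promotes mRNA decay when iron is scarce. CUT560 had 16.7, 15.0 and 17.5 normalized counts in *rrp4-G226D* and 5.09, 4.77 and 6.10 in *RRP4*, a log2 fold change of 1.64 ± 0.15 (SE; edgeR adjusted p = 4.47e-08). CUT561 had 8.05, 9.70 and 8.48 in *rrp4-G226D* and 2.30, 3.36 and 3.27 in *RRP4*, a log2 fold change of 1.55 ± 0.20 (SE; edgeR adjusted p = 3.04e-06). Both rose with no overlap while *TIS11* itself averaged 18.1 ± 1.70 normalized counts in *rrp4-G226D* and 54.9 ± 2.20 in *RRP4* (SD, n = 3 each), a log2 fold change of -1.60. The outer neighbours *SLX4*, a structure-specific endonuclease gene, and *RKM5*, a methyltransferase gene, had log2 fold changes of 0.35 and 0.11.

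The study assayed CUTs by the names CUT501, CUT770 and CUT896 by RT-qPCR, and the rows of those names are described here. CUT501, which the table order puts on chromosome XI between *GFA1* and *APE1*, a vacuolar aminopeptidase gene, had 42.1, 41.2 and 42.6 normalized counts in *rrp4-G226D* and 14.3, 12.8 and 14.3 in *RRP4*, a log2 fold change of 1.61 ± 0.10 (SE; edgeR adjusted p = 3.22e-10). CUT770, on chromosome XV between the spindle checkpoint gene *BUB3* and the Hsp90 co-chaperone gene *STI1*, had 32.4, 40.0 and 33.6 in *rrp4-G226D* and 11.0, 12.8 and 14.1 in *RRP4*, a log2 fold change of 1.49 ± 0.12 (SE; edgeR adjusted p = 9.51e-09). CUT896, on chromosome XVI between *YPR027C* and *YOP1*, had 21.4, 22.4 and 23.9 in *rrp4-G226D* and 7.03, 5.53 and 6.84 in *RRP4*, a log2 fold change of 1.81 ± 0.13 (SE; edgeR adjusted p = 3.94e-09). All 3 rose without overlap. The primer pairs of the study for these names matched other places in R64, chromosome IV from 603138 to 603232 for CUT501, chromosome XIII from 399489 to 399584 for CUT770 and chromosome XVI from 382974 to 383073 for CUT896, so the values here belong to the rows of the table and not to the assayed segments.

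CUT236 and CUT23 are placed in intervals that also hold stable noncoding RNAs. Among the other named CUTs, the intervals of CUT27, CUT360 and CUT896 hold a tRNA row, and those of CUT272 and CUT443 hold snoRNAs given below. CUT236, between the ribosome biogenesis gene *POL5* and *RPL12A* on chromosome V, had 13.1, 13.8 and 18.5 normalized counts in *rrp4-G226D* and 4.48, 4.77 and 5.35 in *RRP4*, a log2 fold change of 1.65 ± 0.17 (SE; edgeR adjusted p = 2.87e-07). The snoRNA snR80 in the same interval averaged 6.73 ± 2.48 normalized counts in *rrp4-G226D* and 2.07 ± 0.450 in *RRP4*, a log2 fold change of 1.71. CUT23, between *PDX3* and *CSG2* on chromosome II, had 6.85, 6.33 and 8.55 in *rrp4-G226D* and 1.82, 1.63 and 3.57 in *RRP4*, a log2 fold change of 1.69 ± 0.26 (SE; edgeR adjusted p = 1.99e-05). Both CUTs rose without overlap. In the interval of CUT23, the snoRNA snR161 had a log2 fold change of 0.64 and *TLC1*, the telomerase RNA, one of -0.28.

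Only 5 CUTs were decreased. CUT27 was given above. The tRNA row tV(UAC)B of its interval averaged 0.150 normalized counts in *rrp4-G226D* and 0.397 in *RRP4* and did not pass the filter on low counts. CUT272, between *PMD1* and *GLC7*, the protein phosphatase type 1 gene, on chromosome V, had 1.85, 1.35 and 2.07 normalized counts in *rrp4-G226D* and 5.21, 4.12 and 6.10 in *RRP4*, a log2 fold change of -1.52 ± 0.26 (SE; edgeR adjusted p = 6.47e-05). The snoRNA snR52 of the same interval averaged 1.41 ± 0.233 in *rrp4-G226D* and 3.04 ± 0.407 in *RRP4*, a log2 fold change of -1.12. CUT102, between the ribosomal protein genes *RPL13A* and *RPP1A* on chromosome IV, had 4.26, 3.04 and 3.71 in *rrp4-G226D* and 7.51, 5.75 and 8.33 in *RRP4*, a log2 fold change of -0.96 ± 0.21 (SE; edgeR adjusted p = 0.000644). Both of these CUTs fell without overlap, and beside CUT102 *RPL13A* had a log2 fold change of -0.81 and *RPP1A* one of -0.74.

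CUT443 and CUT305 were the least firm of the 5. CUT443, between *DAS1* and *RPA34*, an RNA polymerase I subunit gene, on chromosome X, had 3.33, 3.04 and 3.35 normalized counts in *rrp4-G226D* and 4.60, 5.64 and 4.46 in *RRP4*, a log2 fold change of -0.61 ± 0.21 (SE; edgeR adjusted p = 0.0183). Its interval holds the snoRNAs snR128, with a log2 fold change of -0.55, and snR190, which averaged 393 ± 140 normalized counts in *rrp4-G226D* and 3021 ± 377 in *RRP4*, a log2 fold change of -2.94. The study reported snR128 as higher in *rrp4-G226D* by RT-qPCR, in cells with untagged plasmids, and the reason for this difference was not tested. CUT305, between the cytochrome c oxidase gene *COX4* and *TPN1* on chromosome VII, had 0.926, 1.52 and 1.43 in *rrp4-G226D* and 2.54, 1.74 and 3.72 in *RRP4*, a log2 fold change of -0.98 ± 0.33 (SE; edgeR adjusted p = 0.0177). Beside CUT305, *COX4* had a log2 fold change of -0.66 and *TPN1* one of -0.49. Neither CUT overlapped between genotypes. The CUT443 call was lost with DESeq2 (-0.60), under TMM over open reading frames (-0.53), without *RRP4* replicate 2 (-0.48) and without *rrp4-G226D* replicate 2 (-0.57). The CUT305 call was lost without *RRP4* replicate 3 (-0.70) and without *rrp4-G226D* replicate 1 (-0.82). Under scaling by total counts only, CUT102, CUT305 and CUT443 were not called, at -0.51, -0.53 and -0.16. The number of decreased CUTs was 8 without *rrp4-G226D* replicate 3.

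**Figure D4:**
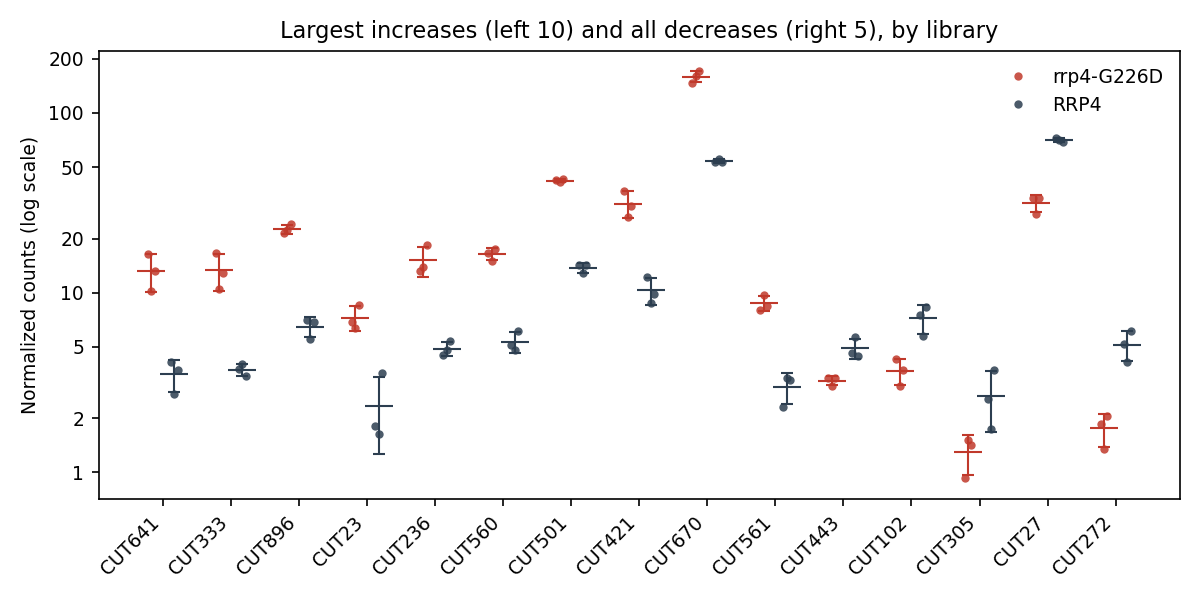
Normalized counts (vertical axis, log scale) in each library of the 10 CUTs with the largest increases among those with a mean raw count of at least 50, and of the 5 decreased CUTs at the right; *rrp4-G226D* is left of *RRP4* in each pair, with the mean and SD of 3 libraries. The groups are apart by choice in the 10 increases, and they are also apart in the 5 decreases. CUT641 has 13.2 in *rrp4-G226D* and 3.52 in *RRP4*, and CUT272 has 1.76 and 5.14.

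Across all 396 CUTs, 49 were placed in an interval that also holds a tRNA, snoRNA or other stable noncoding RNA. Of these 28 (57.1%) were increased and 3 decreased, with a median log2 fold change of 0.71, beside 224 (64.6%) increased and 2 decreased and a median of 0.76 for the other 347. With a ribosomal protein gene on either side there were 15 CUTs, of which 7 were increased and 1 decreased, with a median of 0.59, beside 0.76 for the other 381. Among the 336 CUTs with neither, 221 (65.8%) were increased and 1, CUT305, was decreased. The genes on either side of CUT305, *COX4* and *TPN1*, were also lower in *rrp4-G226D*, at log2 fold changes of -0.66 and -0.49. These groupings were made after the decreased CUTs had been seen, and reads of overlapping rows and of the 2 strands may not be fully separated, since the sources used here do not give a strand option for the counting; the part of the neighbours in these values was not tested.

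The CUTs were then grouped by the orientation of the genes on either side. By row order, 111 CUTs (28.0%) were placed between genes that point away from each other (divergent). Between genes pointing the same way (tandem) were 250 (63.1%), and between genes pointing towards each other (convergent) 35 (8.84%). A CUT so placed may start within the gene before its row, since only the order of starts was used. Over all 5990 neighbouring gene pairs these arrangements made up 25.9%, 48.4% and 25.8%. The intervals of these CUTs had median lengths of 829, 465 and 295 bases in the same order. The shares were not adjusted for length, and its part in them was not tested. The median log2 fold change was 0.73 for divergent (68 increased, 61.3%), 0.81 for tandem (171 increased, 68.4%) and 0.49 for convergent positions (13 increased, 37.1%). Fainter CUTs that passed the filter had medians of 0.72, 0.78 and 0.21 in the same order of arrangements. No test of these differences was made, and CUTs in 1 interval share their neighbours: 31 of the 396 stood together in 15 intervals.

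**Figure D5:**
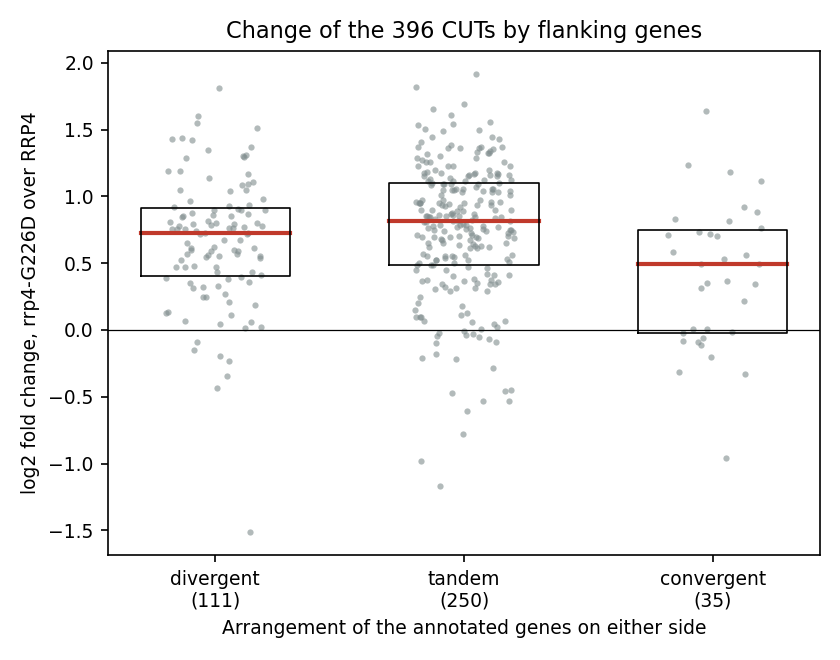
Log2 fold change of *rrp4-G226D* over *RRP4* (vertical axis) for each CUT, by the orientation of the flanking annotated genes (horizontal axis, with the number of CUTs); red lines are medians, boxes are quartiles, and the sideways scatter of points is random. The medians are 0.73 for divergent, 0.81 for tandem and 0.49 for convergent positions.

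Of 707 flanking genes tested, 24 (3.39%) were increased, against 12.7% of all features, and 105 (14.9%) were decreased, near the 11.3% of all features. Their median log2 fold change was -0.09, beside 0.01 for all features. All features include CUTs and SUTs, of which 56.2% and 29.7% of those tested were increased. Among the 3311 open reading frames within the level range of the CUTs, 5.23% were increased and 9.76% decreased, with a median of -0.06. Across CUTs, Pearson's r between the log2 fold change of the CUT and that of its following gene was 0.06 (n = 390), and that with its preceding gene was below 0.01 in size (n = 389); CUTs and genes share the same libraries. Single neighbours moved against their CUT, such as *APE1* after CUT501 at -1.47, *GAS1* after CUT670 at -0.71 and *RPL12A* after CUT236 at -0.82, while *FKS3* before CUT670 had 0.11, *RRB1* and *JLP2* beside CUT641 had -0.10 and -0.03, and *PHO84* after CUT603 averaged 10.4 ± 5.45 in *rrp4-G226D* and 9.85 ± 6.50 in *RRP4*.

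The increase was spread over many CUTs. The summed gain was 1635 normalized counts, to which CUT670 gave 6.43% and the 5 CUTs with the largest gain (CUT670, CUT485, CUT459, CUT501 and CUT603) 14.1%. The same 10 CUTs, those with the highest *RRP4* level, were followed in every library. They held 14.0% ± 0.369 of the counts of the group in *rrp4-G226D* and 16.6% ± 0.275 in *RRP4*. Since *RRP4* levels chose these 10, their lower share in *rrp4-G226D* is a description only. The CUTs lay on all 16 chromosomes, from 6 on chromosome I to 51 on chromosome IV, and the 234 that stood alone between their flanking genes were the larger part.

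The machinery that handles CUTs was examined as a list of 30 genes. *RRP4* transcripts, which come from the plasmid in both genotypes, had 299, 281 and 302 normalized counts in *rrp4-G226D* and 178, 167 and 165 in *RRP4*, a log2 fold change of 0.79 ± 0.06 (SE; edgeR adjusted p = 4.48e-09), without overlap. Of the other 9 core exosome genes 0 were called by edgeR or by DESeq2; at an unadjusted edgeR p under 0.05, 2 were higher and 4 lower. The termination genes *NRD1* (0.91), *NAB3* (0.68) and the helicase gene *SEN1* (0.59) were increased on the log2 scale, and *PCF11*, a cleavage factor gene, was at 0.32 and not called. *NRD1* averaged 531 ± 34.0 normalized counts in *rrp4-G226D* and 283 ± 22.0 in *RRP4*, and *NAB3* averaged 598 ± 49.6 and 373 ± 8.56. None of the 3 nuclear cofactor genes (*RRP6*, *LRP1*, *MPP6*), the 5 TRAMP genes or the 6 cytoplasmic decay genes was called by edgeR or by DESeq2, while at an unadjusted edgeR p under 0.05 there were 0 of the cofactor genes, 2 higher TRAMP genes, and 4 higher and 1 lower of the cytoplasmic decay genes. Their log2 fold changes ran from -0.52 for *DCP1*, a decapping gene, to 0.41 for *NMD2*, a gene of nonsense-mediated decay. *CBC2*, a cap-binding subunit gene, was decreased at -0.63, a call lost under scaling by total counts only, under TMM over open reading frames and without *rrp4-G226D* replicate 2. In all, 4 of 30 were increased and 1 decreased, the first near the 12.7% of all features and the second against 11.3%, with a median of 0.10. All features include the CUTs and SUTs. Among open reading frames within the level range of the CUTs, a range that *NRD1* and others exceed, 5.23% were increased. *SEN1* lies so near 1.5-fold that 3 were increased without *RRP4* replicate 3 or without *rrp4-G226D* replicate 2 or 3.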

How the data were processed

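Per the labels and the methods of the study, the authors depleted rRNA, mapped the read pairs with STAR to the yeast genome, with CUTs and SUTs added to its annotation, and ran featureCounts 1.6.4. The deposited values are whole-number counts per feature and library, without normalization; a deposited table of the authors' DESeq2 comparison (fold changes and p-values) was not used. Total counts were 7663545 to 12181979 per library. The CUTs were found by identifier and *RRP4* level, and these CUTs and all gene lists were chosen with earlier results of these data known.

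Counts of all 8898 features were fitted with edgeR 4.0.16 (R 4.3.3; TMM, filterByExpr by genotype, glmQLFit and glmQLFTest, genotype as the only term), and 7631 features were tested. Calls needed a Benjamini-Hochberg adjusted p below 0.05 and 1.5-fold. The standard error is the log2 fold change over the square root of F. The named CUTs are the 3 that bear the names of CUTs assayed in the study, the 10 highest in *RRP4*, the 10 largest increases and 5 largest decreases among called CUTs with a mean raw count of at least 50 and no overlap, all decreased CUTs if 10 or fewer, the 3 on each side of the limit and the 5 largest gains, with *RRP4* and the called genes of the list of 30. Positions and sequences are from RefSeq R64. Alternatives were DESeq2 1.42.0, other scalings, filters, limits, a replicate block and each library left out. The procedure was tested on simulated data. The labels call the replicates biological. At 3 libraries a genotype, the smallest p of an exact two-sided permutation test is 0.1, so calls rest on the fit across all features.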

Additional observations from a re-analysis of the deposited data

How the results depend on the processing

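With DESeq2, 239 CUTs were increased and 4 decreased, and these 239 were all among the 252. With scaling by total counts only, 336 CUTs were increased and 2 decreased and the median log2 fold change was 1.21, where the median of all features was 0.46; 13 of the 30 CUT-handling genes were then increased and 0 decreased. Under that scaling, chosen for this grouping after seeing the data, the medians by arrangement were 1.17 divergent, 1.26 tandem and 0.94 convergent. TMM over open reading frames gave 274 increased and 4 decreased CUTs, a median of 0.83 and 0 decreased CUT-handling genes. A test against 1.5-fold (glmTreat) called 104 CUTs increased and 2 decreased, and 2 and 0 of the 30 genes. Requiring 2-fold gave 110 and 2, and no minimum fold 10 decreased. A limit of 1 CPM gave 608 CUTs, and a limit of 5 CPM gave 113 CUTs with 66 increased and 2 decreased. Over the counts of open reading frames, CUTs and SUTs only, the share of the 396 was 0.560% in *rrp4-G226D* and 0.283% in *RRP4*.

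Leaving out each library gave 235 to 258 increased and 4 to 8 decreased CUTs with medians of 0.72 to 0.78, and 3 to 4 increased and 0 to 2 decreased of the 30 genes (2, *CBC2* and *DCP1*, without *RRP4* replicate 1, 0 without *rrp4-G226D* replicate 2). With a replicate block there were 250 increased and 6 decreased CUTs and a median of 0.75. Deviations of same-numbered libraries correlated at 0.024, 0.073 and -0.068, and those of differently numbered libraries at -0.120 to 0.106. These values do not settle whether same-numbered cultures were handled together. Of 288 values of the 24 named CUTs under these settings, 273 stayed on their side of the call, 10 lost and 5 gained it, and 0 of those called changed direction. Low counts limit the faintest CUTs, where 1 library can move a call.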

Other observations

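At the limit of 2 CPM, values in the mutant varied among the 3 CUTs on each side. CUT296, just inside, averaged 6.86 normalized counts in *rrp4-G226D* and 2.35 in *RRP4*. CUT23 averaged 7.24 and 2.34, and CUT568 averaged 5.33 and 2.37. CUT468, just outside, averaged 1.75 in *rrp4-G226D* and 2.32 in *RRP4*. CUT571 averaged 4.17 and 2.32, and CUT798 averaged 5.06 and 2.31, close to CUT568 inside the limit.

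The assayed names and the rows of the table differ in place. The primer pair of CUT896 matched chromosome XVI once, from 382974 to 383073, while its row lies between genes that start at 620425 and 623527 on the same chromosome. For CUT501 and CUT770 the chromosomes themselves differ. Which numbering the names follow was not tested.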
